A study of Lobosphaera incisa with 32 samples.

Results

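The phosphate genes VTC4 and PAPase of the green microalga Lobosphaera incisa were followed through N deprivation. VTC4 (gene g13494) putatively encodes the subunit of the vacuolar transporter chaperone (VTC) complex that polymerises polyphosphate (polyP), and PAPase (g13792) a putative acid phosphatase. Both members were chosen by gene ID, and they are 2 of the 16722 genes quantified, with 3 of the 20212 transcripts. The RNA came from axenic cultures of strain SAG 2468 in 4 conditions. Cells deprived of N were taken at 12 h under high light (Nst12hHL, 150 µmol photons per square metre per second), at 72 h under high light (Nst72hHL) and at 72 h under normal light (Nst72hNL, 75 µmol photons). The Control was the same strain in logarithmic growth with N at 0 h, under normal light. The deprived cells had been pelleted and washed before transfer to the medium without N. A condition comprised 2 cultures, each sequenced in 4 technical replicates, so 8 libraries.

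PolyP is a linear chain of phosphate residues that many microbes and algae store in vacuoles and acidocalcisomes. In yeast, Vtc4 is the catalytic subunit that builds the chain from ATP and passes it into the vacuole. Acid phosphatases work at the other end of phosphate economy, releasing phosphate from organic esters and other phosphorylated compounds at low pH, as in vacuoles or outside the cell. In L. incisa both roles are putative and rest on sequence annotation. PAPase was picked by the authors from several candidate phosphatases because it was higher without N in these same libraries, so its direction here is a description and not independent evidence.

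The values are FPKM, fragments scaled by gene length and by the total of mapped fragments, which makes levels of both genes comparable per length. The authors deposited 1 pooled value per condition, so these values hold no replicate check of any difference and no SD. The comparisons made by the authors over replicates were not used here, and no p-value is given. The 95% intervals from RSEM quoted with the levels cover counting and read assignment only, not the spread between cultures. Pooled expected counts summed to 148630272 in Control, 285924034 in Nst12hHL, 214719396 in Nst72hHL and 329774484 in Nst72hNL. At this depth the intervals were narrow, with half-widths of 0.668% to 1.72% of the level over the 8 values. In bulk RNA a level is a share of the mRNA, so fewer cells with the transcript and less transcript per cell cannot be told apart. The only replete sample was taken at 0 h, so N cannot be told apart from time, and in both high-light samples not from light either.

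PAPase had its lowest level in the replete culture and a higher one in every deprived sample. Its pooled FPKM was 42.0 in Control (95% interval 41.3 to 42.7), 69.6 in Nst12hHL (68.9 to 70.3), 123 in Nst72hHL (122 to 124) and 128 in Nst72hNL (127 to 129). None of these intervals overlapped, but the pair at 72 h lay far closer together than any other. Its estimated fragments numbered 12806 in Control, 40668 in Nst12hHL, 53950 in Nst72hHL and 86228 in Nst72hNL. Among all genes the transcript stood above 85.0% of genes in Control, 90.2% in Nst12hHL, 95.3% in Nst72hHL and 95.8% in Nst72hNL. By rank it was gene 790 in Nst72hHL and 705 in Nst72hNL, against 2506 in Control. By qRT-PCR the paper reports that PAPase also rose over time in the replete culture, though most clearly without N.

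VTC4 took the opposite course, with its highest level in the replete culture. Its pooled FPKM was 60.5 in Control (95% interval 59.8 to 61.1), 44.8 in Nst12hHL (44.3 to 45.2), 43.6 in Nst72hHL (43.1 to 44.1) and 27.9 in Nst72hNL (27.6 to 28.2). The 2 high-light samples were nearly level despite the difference in time, and the lowest value came from 72 h under normal light. The estimated fragments of VTC4 were 29197 in Control, 41413 in Nst12hHL, 30271 in Nst72hHL and 29682 in Nst72hNL. The raw number was thus about the same in Control and at 72 h, while the total of the libraries was larger at 72 h, so its share of all fragments was lower there. VTC4 stood above 90.1% of genes in Control, 83.2% in Nst12hHL, 85.2% in Nst72hHL and 78.1% in Nst72hNL. The transcript remained well above the median gene throughout, at 6.17 times its FPKM in Control and 3.05 times in Nst72hNL. By qRT-PCR in a separate time course, the paper instead reports a transient peak of VTC4, as of PAPase, at 12 h without N. It also reports that VTC4 reached its maximal level without N some days in, later than the 72 h sampled here. The pooled VTC4 level was lower than in Control at 12 h and in both samples at 72 h. The reason for this difference from the qRT-PCR was not tested.

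**Figure D1:**
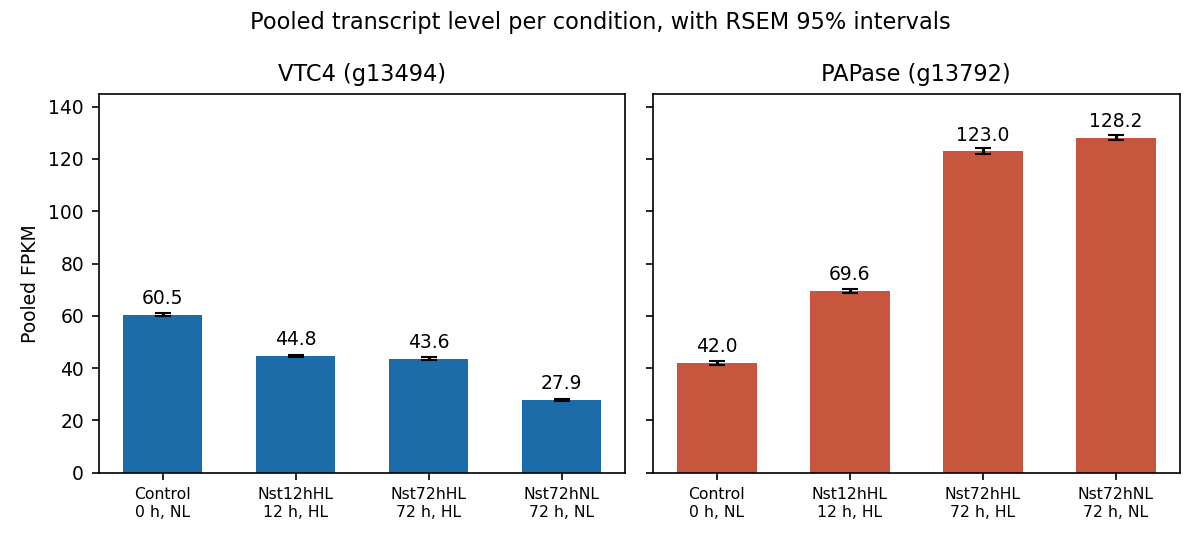
Pooled FPKM (vertical axis) of VTC4 (left) and PAPase (right) in the 4 conditions (NL, normal light; HL, high light), with RSEM 95% intervals as error bars, which cover counting and read assignment only. VTC4 is highest in Control (60.5) and lowest in Nst72hNL (27.9), whereas PAPase is lowest in Control (42.0) and highest in Nst72hNL (128).

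The order of both genes was exchanged between replete and deprived cells. The ratio of PAPase to VTC4 within a condition does not depend on how libraries are scaled to each other, since a common factor cancels. In Control PAPase had 0.695 times the FPKM of VTC4 (0.675 to 0.715 from the bounds of both intervals). In Nst12hHL the ratio was 1.55 (1.52 to 1.58), in Nst72hHL 2.82 (2.76 to 2.88) and in Nst72hNL 4.59 (4.51 to 4.68). VTC4 was the more abundant transcript per length in the replete culture only, and PAPase in the 3 deprived samples. Relative to Control the ratio was 2.24 times as large in Nst12hHL, 4.06 times in Nst72hHL and 6.61 times in Nst72hNL. Under high light at 72 h it was 0.614 times that under normal light, and most of this difference lay in VTC4. Without division by length, PAPase had 0.439 times the fragments of VTC4 in Control, 0.982 times in Nst12hHL, 1.78 times in Nst72hHL and 2.91 times in Nst72hNL. PAPase has the shorter gene model, 2035 bases against 3195 for VTC4, and by fragments both genes were about level at 12 h.

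**Figure D2:**
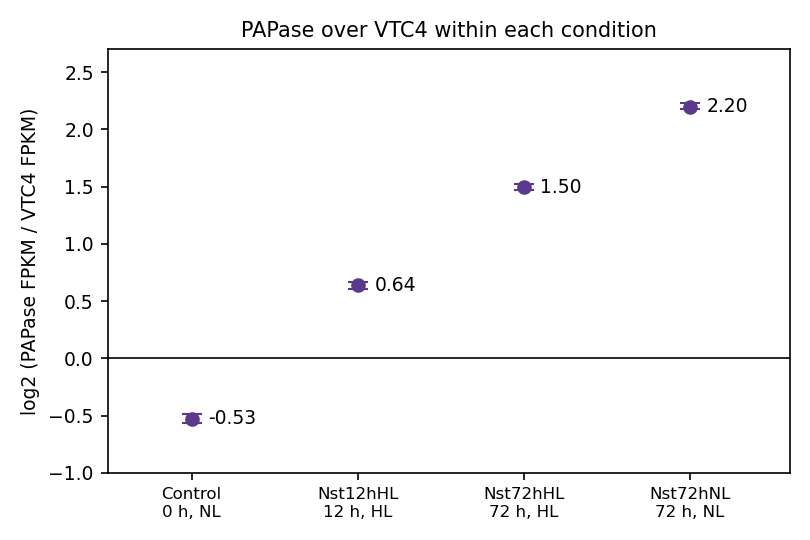
Log2 ratio of PAPase FPKM to VTC4 FPKM (vertical axis) within each of the 4 conditions, with bars from the bounds of both RSEM 95% intervals. The ratio lies below 0 in Control (-0.53) and above 0 in Nst12hHL (0.64), Nst72hHL (1.496) and Nst72hNL (2.200).

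To set the members against the rest of the transcriptome, log2 ratios were taken after adding 1 FPKM, leaving out genes below 1 FPKM in both samples compared, and a gene was counted as past the threshold at a fold of 2 on that scale. With pooled values this threshold is a size and not a test. At 72 h under normal light both members were past it, PAPase 128 FPKM against 42.0 in Control and VTC4 27.9 FPKM against 60.5 in Control. The ratios were 3.05 for PAPase (log2 ratio 1.59, from 1.55 to 1.62 by the interval bounds) and 0.462 for VTC4 (log2 ratio -1.09, from -1.12 to -1.06). Of 13789 genes, 9.92% were at least 2-fold higher and 14.1% at least 2-fold lower. The log2 ratio of PAPase exceeded that of 95.3% of the genes, so it lay near the upper end. VTC4 was less far out, since 12.6% of the genes had a lower ratio. It was past 2-fold by a small margin, which depended on the unit: with TPM, which scales to all transcripts of a sample, its log2 ratio was -0.82. The median gene itself stood at 0.21 with TPM, and VTC4 lay at -1.04 relative to it. TPM also moved the share of higher genes among those past 2-fold to 57.4%, against 41.4% with FPKM.

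At 72 h under high light PAPase was again past 2-fold, with 123 FPKM against 42.0 in Control, a ratio of 2.93 and a log2 ratio of 1.53 (1.49 to 1.56). Here 10.1% of 13827 genes were at least 2-fold higher, and 5.54% had a higher ratio than PAPase. VTC4 had 43.6 FPKM against 60.5 in Control, a ratio of 0.721 and a log2 ratio of -0.46 (-0.49 to -0.43). It was not past 2-fold, as 13.4% of the genes were on the lower side. A ratio as low or lower is common there, because 29.1% of the genes lay below VTC4. The median gene had a log2 ratio of -0.07. With TPM the share of higher genes among those past 2-fold was 54.0%, against 43.0% with FPKM, and the log2 ratio of VTC4 was -0.26, less than its FPKM value by over 1.5 times.

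At 12 h under high light neither member was past 2-fold. PAPase had 69.6 FPKM against 42.0 in Control, a ratio of 1.66 and a log2 ratio of 0.72 (0.68 to 0.75). VTC4 had 44.8 FPKM against 60.5 in Control, a ratio of 0.741 and a log2 ratio of -0.42 (-0.45 to -0.395). In this comparison the median log2 ratio was 0.20 over 14043 genes, and 17.0% were at least 2-fold higher and 5.74% at least 2-fold lower. Less that median, the log2 ratio was 0.51 for PAPase and -0.63 for VTC4. Both directions were already those of 72 h. PAPase lay inside the bulk of the distribution, with 23.9% of genes higher, and VTC4 further towards its edge, with 15.3% of genes lower. A scaling applies a common factor to all genes of a sample, so both members had to move by about the same log2 amount. With TPM the log2 ratio was -0.24 for VTC4 and 0.91 for PAPase. With median-of-ratios scaling it was -0.62 for VTC4 and 0.52 for PAPase.

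**Figure D3:**
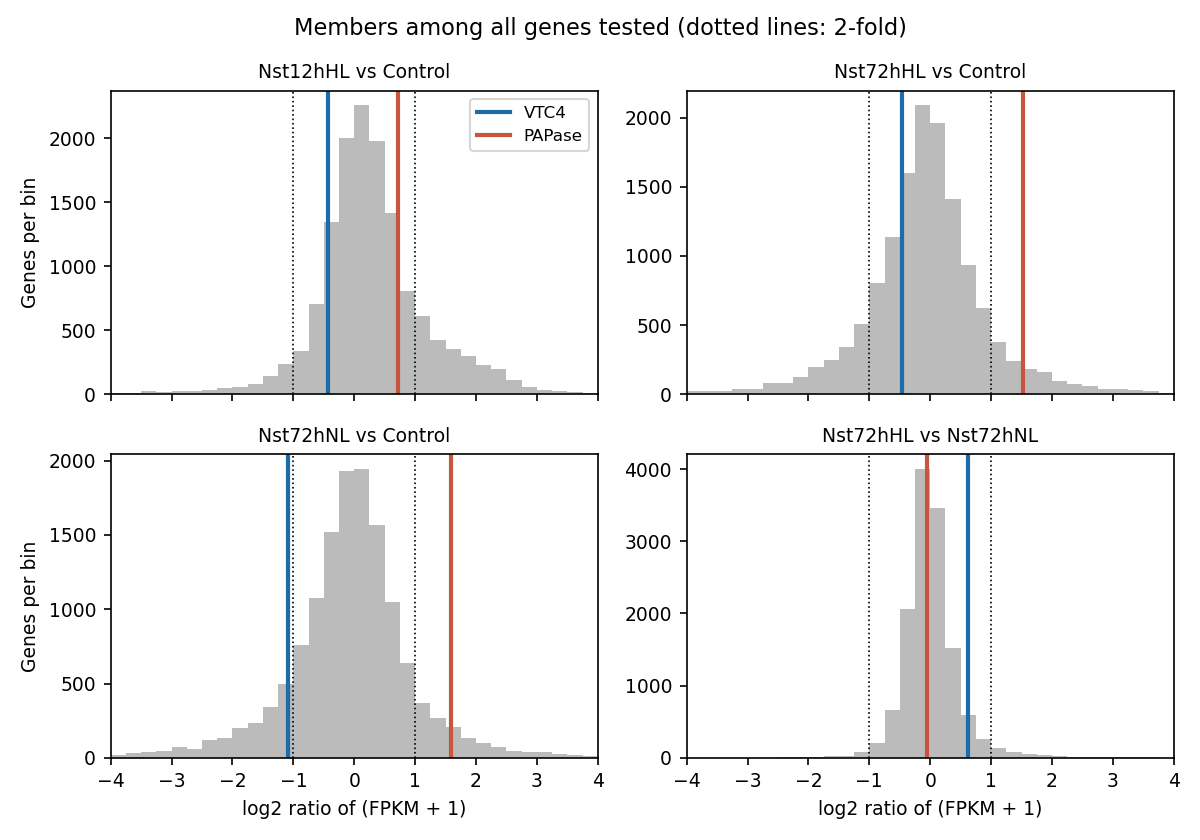
Distribution of log2 ratios of FPKM plus 1 (horizontal axis) over the genes tested (grey, number of genes per bin) in 4 comparisons, with the members as coloured lines and a fold of 2 as dotted lines; the axis shows -4 to 4. PAPase lies past 2-fold in both comparisons of 72 h with Control, VTC4 only in Nst72hNL vs Control, and in Nst72hHL vs Nst72hNL VTC4 lies on the upper side while PAPase is near the middle.

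At 72 h VTC4 differed between the lights by a larger ratio than PAPase. VTC4 had 43.6 FPKM under high light against 27.9 under normal light, a difference of 15.7 FPKM, a ratio of 1.56 and a log2 ratio of 0.63 (0.59 to 0.66). PAPase had 123 FPKM under high light against 128 under normal light, a ratio of 0.960 and a log2 ratio of -0.06 (-0.08 to -0.04). VTC4 was thus higher under high light by a ratio that 6.71% of 13333 genes exceeded, whereas PAPase was close to the median gene, which had a log2 ratio of -0.03. Neither was past 2-fold, and few genes were, 2.96% at least 2-fold higher and 1.25% at least 2-fold lower under high light. With the 4 scalings tried the log2 ratio of VTC4 between the lights was 0.56 to 0.63, and VTC4 was higher under high light in each. Whether 2 cultures of the same light would differ as much cannot be told from pooled values.

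Between 72 h and 12 h of deprivation, both under high light, PAPase differed and VTC4 was nearly level. PAPase had 123 FPKM in Nst72hHL against 69.6 in Nst12hHL, a ratio of 1.77 and a log2 ratio of 0.81 (0.79 to 0.84). The median gene lay on the other side in FPKM, with a log2 ratio of -0.21 over 14035 genes, and less that median the value for PAPase was 1.02. On the uncentred scale 6.56% of the genes were at least 2-fold higher and 19.7% at least 2-fold lower, and neither member was among them. With median-of-ratios scaling the share of higher genes among those past 2-fold was 37.6%, against 25.0% with FPKM, and PAPase was past 2-fold, with a log2 ratio of 1.07. VTC4 had 43.6 FPKM in Nst72hHL against 44.8 in Nst12hHL, a log2 ratio of -0.04. Its sign was not stable, since it was 0.22 with median-of-ratios scaling, 0.08 relative to SNRP and COX3 and 0.17 less the median gene. No order of these VTC4 levels can therefore be given.

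**Figure D4:**
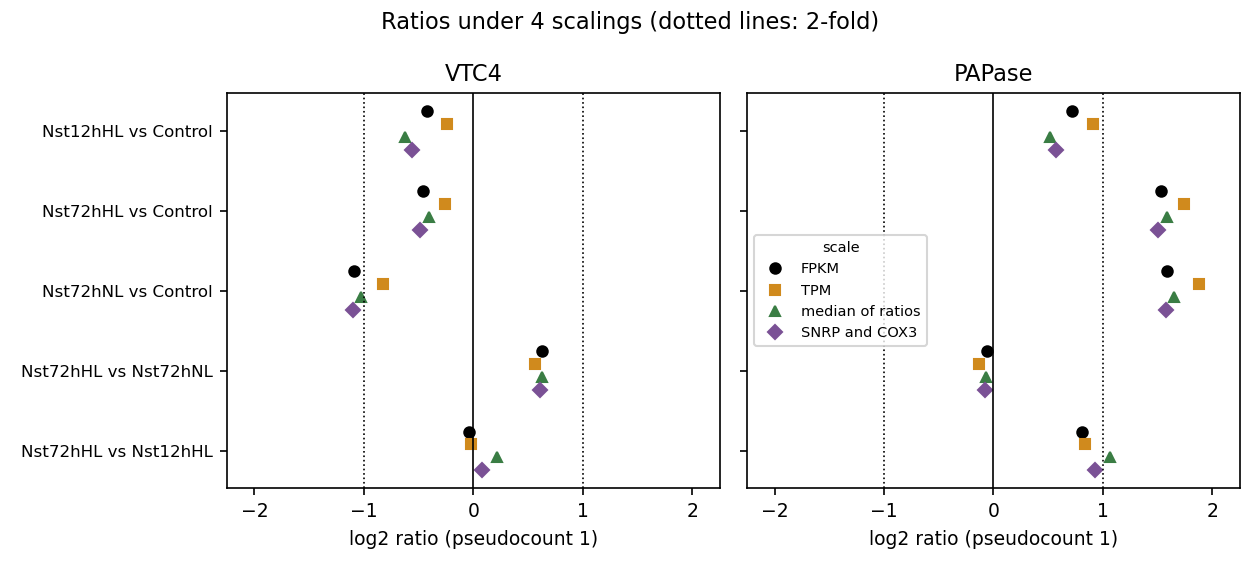
Log2 ratios (horizontal axis, pseudocount 1) of VTC4 (left) and PAPase (right) in 5 comparisons, each under 4 scalings: FPKM, TPM, median of ratios, and FPKM relative to the reference genes SNRP and COX3. PAPase is to the right of 0 and VTC4 to the left in all comparisons with Control under each scaling, and VTC4 in Nst72hHL vs Nst12hHL lies on both sides of 0.

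The remaining genes of the qRT-PCR panel of the study served as company for the members. SNRP (g7308), a small nuclear ribonucleoprotein, and COX3 (g10280), a cytochrome c oxidase subunit, were its reference genes. SNRP had 223, 219 and 210 FPKM in Nst12hHL, Nst72hHL and Nst72hNL, against 211 in Control. COX3 had 340, 293 and 301 FPKM in these samples, against 295 in Control. Both were nearly level except for COX3 at 12 h. Relative to their geometric mean, VTC4 stood at 0.242 in Control, 0.163 in Nst12hHL, 0.172 in Nst72hHL and 0.111 in Nst72hNL. PAPase stood at 0.168 in Control, 0.253 in Nst12hHL, 0.485 in Nst72hHL and 0.510 in Nst72hNL. The opposite courses of the members were also present on the scale that the reference genes set. The study had chosen both reference genes for stable expression, so they are not a neutral choice. Dividing by them moved the log2 ratios of Nst12hHL to Control from -0.42 to -0.56 for VTC4 and from 0.72 to 0.58 for PAPase. The log2 ratio of VTC4 in Nst72hHL against Nst12hHL changed sign, from -0.04 to 0.08.

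Of the 8 panel genes besides the members, 2 were at least 2-fold higher than Control in Nst12hHL, 3 in Nst72hHL and 3 in Nst72hNL, and 0 were 2-fold lower in any of these. Over all genes tested in the same comparisons the shares were 17.0%, 10.1% and 9.92% higher, and 5.74%, 13.4% and 14.1% lower. The median log2 ratio of the panel genes was 0.52 in Nst12hHL, 0.69 in Nst72hHL and 0.42 in Nst72hNL. The medians over all genes tested in the same comparisons were 0.20, -0.07 and -0.04. The study picked the panel for pathways of interest, and SNRP and COX3 for stability, so it is not a neutral sample of genes. Of the 22 autophagy-related (ATG) genes that the study lists, which share ATG8 with the panel, 1 was at least 2-fold higher in Nst12hHL, 2 in Nst72hHL and 4 in Nst72hNL, and 0 were 2-fold lower. In Nst12hHL and Nst72hHL these numbers were at or below the shares of higher genes just given. In each comparison with Control all 29 distinct genes of both lists had a higher ratio than VTC4, as had 84.6% of all genes in Nst12hHL, 70.9% in Nst72hHL and 87.4% in Nst72hNL. PAPase was exceeded by 7 of the 29 at 12 h, and at 72 h by 3 under high light and by 3 under normal light, where 23.9%, 5.54% and 4.72% of all genes exceeded it. Between the lights at 72 h all 29 had a lower ratio of high to normal light than VTC4, as had 93.3% of all genes, so the lists stand close to the background there. The 3 comparisons with Control share its libraries and are not independent of each other.

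Each gene was further compared with 10342 others by its course over the 4 conditions, using log2(FPKM + 1) less the mean of the gene and the Euclidean distance between courses, among genes with at least 10 FPKM in one condition. PAPase and VTC4 were at a distance of 2.00 from each other. Nearer than that, 83.4% of the genes lay to VTC4 and 72.1% to PAPase. Of the panel, ATG8, the ubiquitin-like protein of autophagosome membranes, had the course nearest to PAPase, at a distance of 0.301 and rank 71 of 10342. MFP, the multifunctional protein of β-oxidation, was next at 0.677 and rank 737. The genes most like PAPase were g13894, at a distance of 0.0467, and g10388, at 0.0920. Of these, g13894 had 308, 559 and 588 FPKM in Nst12hHL, Nst72hHL and Nst72hNL, against 189 in Control, and g10388 had 36.6, 63.7 and 69.7 FPKM, against 23.4 in Control. Those most like VTC4 were g12893, at 0.0662, and g3509, at 0.0758. The less abundant g12893 had 12.8, 12.1 and 8.02 FPKM in Nst12hHL, Nst72hHL and Nst72hNL, against 17.4 in Control. The abundant g3509 had 907, 925 and 566 FPKM in Nst12hHL, Nst72hHL and Nst72hNL, against 1275 in Control. These genes were picked for likeness over these same values, so a shared pattern of light at 72 h follows from the choice. The tables used here pair none of these 4 IDs with a product.

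**Figure D5:**
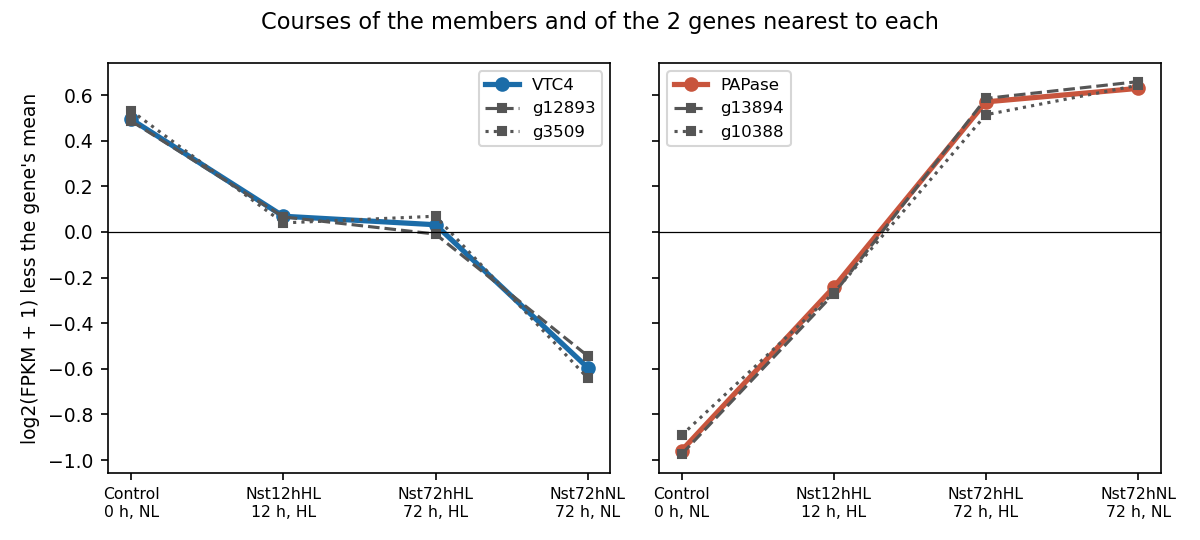
Log2(FPKM + 1) less the mean of the gene over the 4 conditions (vertical axis) for VTC4 (left) and PAPase (right) and the 2 genes nearest to each (grey); lines join conditions for legibility only. The grey genes were picked for their likeness to the members, with distances of 0.0662 and 0.0758 for VTC4 and of 0.0467 and 0.0920 for PAPase.

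Such courses were not rare. Like VTC4, 1276 of 10343 genes (12.3%) were highest in Control and lowest in Nst72hNL, whatever the order of both high-light samples. The FPKM order of PAPase, lowest in Control and then Nst12hHL, Nst72hHL and Nst72hNL, was found in 957 genes (9.25%). All 3 deprived samples lay above Control in 32.7% of the genes, as for PAPase, and below Control in 23.2%, as for VTC4. By the overall size of the course, 73.0% of genes varied less than PAPase and 52.8% less than VTC4, so VTC4 was near the middle.

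The gene rows stood for nearly a single transcript each. PAPase has 1 transcript model (g13792.t1), as have 85.0% of all genes, and its levels are those of the gene. VTC4 has 2 models, g13494.t1 of 3195 bases and g13494.t2 of 3330 bases. The longer model took 0.2% of the VTC4 TPM in Control, 0.04% in Nst12hHL and 0.16% in Nst72hHL, with 61.4, 16.9 and 49.5 estimated fragments. In Nst72hNL it was listed at 0, with an upper bound of 0.0477 FPKM in the 95% interval from RSEM. These fragments are estimates of a read assignment between models that may share most of their sequence, and the 95% intervals of the g13494.t2 FPKM in Control (0.0292 to 0.290) and Nst12hHL (0.00132 to 0.0711) overlap. The interval in Control also overlaps that in Nst72hNL. Whether the use of the models differed between conditions cannot be told from these estimates. The course of VTC4 was that of g13494.t1, with 60.3 FPKM in Control, 44.8 in Nst12hHL, 43.5 in Nst72hHL and 27.9 in Nst72hNL.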

How the data were processed

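Total RNA from 32 samples in 4 conditions was sequenced by the authors. The submitters' processing notes list RSEM 1.2.9, Bowtie 1.0.0, cutadapt 1.1, CASAVA 1.8 and DESeq (no version). Assembly and annotation versions were not given in the sources used here. For every gene and transcript the authors deposited FPKM with its 95% interval, TPM and expected counts, each pooled to 1 value per condition. For transcripts the deposited tables add the percent of the TPM of the gene. The deposited length and effective length were equal in all gene rows (0 differed). The authors also deposited their own comparisons (mean normalized counts, folds, p-values), which were not used.

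Ratios of pooled FPKM were computed here, with log2 ratios after adding 1 FPKM, leaving out genes below 1 FPKM in both samples compared. A log2 ratio with a pseudocount understates changes of low genes. Median-of-ratios factors were taken from genes above 0 in all conditions. No test was possible on pooled values, and 0 columns of single libraries were used. The members and lists were chosen with earlier results of these data known. Named genes were the members, the panel genes and, by smallest Euclidean distance of courses, 2 gene IDs per member. Of the steps, only the log2 ratio and the median-of-ratios scaling were tested on simulated counts, for a single pair of conditions. Python 3.11.15, numpy 2.4.6, pandas 2.3.3 and matplotlib 3.10.9 were used. Alternatives were TPM, median-of-ratios scaling, scaling to SNRP and COX3, pseudocounts of 0.1 and 0, no FPKM minimum, transcript rows, centring on the median gene, and posterior mean FPKM.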

Additional observations from a re-analysis of the deposited data

How the results depend on the processing

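No paired analysis was possible because the tables hold 1 pooled value per condition, and leaving out replicates was not run for the same reason. Centring the member ratios, posterior mean FPKM and the comparison of Nst72hHL with Nst12hHL were chosen after seeing the data. With the most abundant transcript, posterior mean FPKM and pseudocounts of 0.1 and 0, the member ratios stayed within the bounds set by the RSEM intervals. The scalings moved them as follows, as log2 ratios. With TPM, VTC4 had -0.24 in Nst12hHL, -0.26 in Nst72hHL and -0.82 in Nst72hNL against Control, and 0.56 in Nst72hHL against Nst72hNL, while PAPase had 0.91, 1.74, 1.87 and -0.13. TPM shifted the median of all genes itself, to 0.39, 0.12 and 0.21 against Control. With median-of-ratios scaling, VTC4 had -0.62, -0.41 and -1.03 against Control in the same order, and PAPase 0.52, 1.59 and 1.65. Less the median gene, VTC4 had -0.63, -0.39 and -1.05, and PAPase 0.51, 1.60 and 1.63, with -0.033 for PAPase between the lights. Relative to SNRP and COX3, VTC4 had -0.56 and PAPase 0.58 in Nst12hHL against Control. For Nst72hHL against Nst12hHL, VTC4 had 0.22, 0.078 and 0.17 with median-of-ratios scaling, the reference genes and centring, all of opposite sign to the FPKM value of -0.037, and PAPase had 1.07, 0.93 and 1.02. By expected counts without length, the log2 ratio of PAPase to VTC4 was -1.19 in Control, -0.026 in Nst12hHL, 0.83 in Nst72hHL and 1.54 in Nst72hNL, so the genes were about level at 12 h. Genes at least 2-fold higher in Nst72hNL than in Control numbered 2178 with TPM, against 1368 with FPKM, and genes at least 2-fold lower in Nst72hHL than in Nst72hNL numbered 274 and 309 with pseudocounts of 0.1 and 0, against 167. Every member ratio against Control kept its sign under all alternatives tried, and TPM was the only alternative with which VTC4 in Nst72hNL was not past 2-fold. Depth limits only the transcript g13494.t2.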
